A study of Arabidopsis thaliana with 22 samples.

Results

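The 9 loci described here are the regulators and the late enzymes of flavonoid and anthocyanin synthesis. They were taken by locus code from a count table of 24185 loci and comprised the regulators MYB12, MYB111, MYB75, MYB90, TT8 and TTG1 and the enzymes DFR, LDOX and UF3GT. All 9 were in the table and passed the filter on low counts (1 CPM in 2 libraries), MYB12 through libraries 9, 17, 18 and 19 and MYB90 through libraries 17 and 18 alone. RNA had been sequenced from whole seedlings of Arabidopsis thaliana grown for 14 days on soil. Plants were labelled with 1 of 6 natural accessions, which are inbred wild strains, and as mock treated or treated with ultraviolet light from unfiltered tubes (fluence rate 4.35 W per square metre at 312 nm, a UV-B wavelength). All tissue was taken 3 h after treatment.

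The 22 libraries bear the numbers 1 to 22. By label, libraries 1 to 4 were Ba-1 (mock 1, mock 2, UV 1, UV 2), libraries 5 to 8 were C24 in the same order, and libraries 9 to 11 were Got-7 (mock 1, mock 2, UV 1). Libraries 12 to 15 were Lip-0 and libraries 16 to 19 Mh-0, each with 2 mock and 2 UV, and libraries 20 to 22 were T1080 (mock 1, UV 1, UV 2). The labels do not say whether replicates were grown apart. The spread that p-values are set against may thus be technical.

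Flavonoids absorb ultraviolet light, and seedlings make flavonols and anthocyanins from the same early intermediates. MYB12 and MYB111 are transcription factors that switch on the early enzymes and flavonol synthase without a bHLH partner. MYB75 and MYB90 (also called PAP1 and PAP2) act in a complex with a bHLH protein such as TT8 and the WD-repeat protein TTG1. That complex switches on the late enzymes DFR, LDOX and UF3GT, which carry intermediates into anthocyanins.

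In the RefSeq annotation of assembly TAIR10.1, MYB12 (AT2G47460) spans chr2:19476326-19479597 on the plus strand and MYB111 (AT5G49330) spans chr5:19998823-20001572 on the minus strand. MYB75 (AT1G56650) lies at chr1:21233555-21235292 (minus) and MYB90 (AT1G66390) at chr1:24763941-24765541 (plus). TT8 (AT4G09820) lies at chr4:6181881-6186523 (plus) and TTG1 (AT5G24520) at chr5:8370317-8372847 (minus). Of the enzymes, DFR (AT5G42800) lies at chr5:17164093-17166032, LDOX (AT4G22880) at chr4:12004726-12006209 and UF3GT (AT5G54060) at chr5:21936746-21938396, all on the minus strand. The count table itself holds no coordinates.

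Besides the labels, a second division of the libraries was compared, into sets and blocks. The blocks cut across labelled accessions and treatments, and the sets cut across labelled treatments only. Libraries 1 to 11 formed a first set and libraries 12 to 22 a last set. Each set held libraries labelled with 3 accessions, with 5 UV and 6 mock libraries in the first set and 6 UV and 5 mock in the last. The first set was labelled Ba-1, C24 and Got-7 and the last Lip-0, Mh-0 and T1080. No labelled accession was in both sets, so by label a set difference cannot be told apart from one between accessions. Within the sets, 6 blocks were compared that had been proposed as genotypes, which the labels do not give: block A (libraries 1 and 3, and 12), block B (2 and 4, and 13 and 14), block C (5 and 6, and 15 and 16), block D (7, and 17 and 18), block E (8 and 9, and 19 and 20) and block F (10 and 11, and 21 and 22). Every block mixed at least 2 labelled accessions and both labelled treatments. What else may separate the sets is not given in the labels, and neither set is called UV or mock here.

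The sets and blocks were not drawn independently of the data. The first principal component (59.4% of the variance of log2 CPM, where CPM is the count scaled to a common library size) separated the first set from the last. Each of the 20 libraries with a partner of its own block and set had that partner as its nearest library, in 10 mutually nearest pairs with r from 0.964 to 0.992. Paired libraries still differed by more than counting noise, at a mean chi-square per locus of 1.7 to 7.34 (1 in the absence of other error), so each was kept as a library. P-values against the spread within such pairs are therefore too small and describe these columns, not a treatment. Library totals were between 3539510 and 20903894 counts.

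Leaf transcripts were abundant in every library, and transcripts of the root hair and seed markers were nearly absent. The summed level of 3 leaf markers (RBCS1A, LHCB1.3 and LHCB2.1) was 29804 to 36742 CPM in the first set and 17826 to 29790 CPM in the last. The highest last-set sum thus lay just below the lowest first-set sum, and LHCB1.3 and LHCB2.1 alone overlapped between the sets. Over all blocks each of the 3 was called lower in the last set, as 38.5% of all loci were. In block B LHCB1.3 was not lower (0.07 ± 0.08 on the log2 scale). The summed level of 3 root hair markers (COBL9, EXPA7 and EXPA18) was at most 0.277 CPM in any library, and the seed storage genes CRU3 and SESA3 had at most 1 count. The seed coat genes BAN and TT12 together reached at most 0.554 CPM. Root hair transcripts were thus at or near 0, although the tissue is labelled as whole seedlings. Floral AG was at 0.249 to 1.43 CPM in the first set and 0 to 0.341 CPM in the last. It passed the filter on low counts only through first-set libraries, so no difference between the sets is read for it. The 3 flower markers summed to at most 2.01 CPM. In bulk RNA, fewer cells of a type and less RNA per cell cannot be told apart. The part of leaf or flower transcripts in the differences below was not tested.

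The windows upstream of the late enzymes and of both flavonol MYB genes are shown because the 3 enzymes had the most similar profiles among the 9 genes and because both MYB genes belong to the flavonol branch. Each run is the 250 bases before the gene start annotated by RefSeq, read 5′ to 3′ on the gene's strand in assembly TAIR10.1, which is the Columbia reference and not the sequence of these accessions. The windows lie at chr5:17166033-17166282 (minus strand) for DFR, chr4:12006210-12006459 (minus) for LDOX, chr5:21938397-21938646 (minus) for UF3GT, chr2:19476076-19476325 (plus) for MYB12 and chr5:20001573-20001822 (minus) for MYB111. Capitals mark the G-box CACGTG, which bHLH and bZIP proteins can bind, and the MYB-type elements ACCNACC and ACCNAAC, each searched on both strands.
DFR: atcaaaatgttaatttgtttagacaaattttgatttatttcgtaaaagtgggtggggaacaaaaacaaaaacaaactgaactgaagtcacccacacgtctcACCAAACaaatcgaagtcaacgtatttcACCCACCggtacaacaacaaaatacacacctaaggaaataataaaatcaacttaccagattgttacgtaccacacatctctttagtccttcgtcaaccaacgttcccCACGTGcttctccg
LDOX: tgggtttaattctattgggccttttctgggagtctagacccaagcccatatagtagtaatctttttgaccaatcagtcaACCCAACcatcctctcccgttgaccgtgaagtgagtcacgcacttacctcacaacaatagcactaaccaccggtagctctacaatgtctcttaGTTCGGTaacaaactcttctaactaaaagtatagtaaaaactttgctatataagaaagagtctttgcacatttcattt
UF3GT: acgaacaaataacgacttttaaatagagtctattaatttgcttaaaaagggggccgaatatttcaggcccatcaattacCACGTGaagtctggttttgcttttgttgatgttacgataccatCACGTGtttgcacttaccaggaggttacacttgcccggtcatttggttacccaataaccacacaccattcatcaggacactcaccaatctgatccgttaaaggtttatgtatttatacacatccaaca
MYB12: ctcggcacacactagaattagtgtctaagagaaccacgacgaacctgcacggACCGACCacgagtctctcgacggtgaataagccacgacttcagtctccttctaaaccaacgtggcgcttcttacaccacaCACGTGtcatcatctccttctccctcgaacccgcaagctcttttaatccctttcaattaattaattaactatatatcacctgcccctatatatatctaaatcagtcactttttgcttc
MYB111: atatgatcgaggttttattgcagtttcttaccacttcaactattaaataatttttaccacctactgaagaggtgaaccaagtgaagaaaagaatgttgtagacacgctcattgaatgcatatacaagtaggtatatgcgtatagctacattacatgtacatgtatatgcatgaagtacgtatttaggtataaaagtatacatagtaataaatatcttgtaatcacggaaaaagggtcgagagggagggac
The G-box occurred 2 times in the UF3GT window and 1 time each in those of DFR and MYB12. DFR held 1 ACCNACC and 1 ACCNAAC, LDOX held 2 ACCNAAC, of which 1 lay on the opposite strand, and MYB12 held 1 ACCNACC. The MYB111 window held none of the 3 motifs, which says only that these letters are not in it. Over the windows of 23526 protein-coding loci of the count table, 6.92% held the G-box, 6.15% held ACCNACC and 14.7% held ACCNAAC, so matches of this kind are not rare.

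The first comparison asked how the last set differed from the first within blocks. MYB111 was lower and TTG1 was higher in the last set in each of the 6 blocks. The late enzymes and MYB75 were higher in some blocks and not in others, most in block D. Of the 9 genes, 6 were higher and 1 lower in the last set at an adjusted p under 0.05 in edgeR's quasi-likelihood test with block and set as terms. That is 7 of 9 (77.8%), beside 76.2% of all 18149 loci tested. Since 37.7% of loci were called higher and 38.5% lower, the count of genes called is near the background and is no result about these genes. The 6 include MYB90, which reached the filter only through last-set libraries, so its call supports nothing. DESeq2 called 5 of the 9, beside 13665 of all loci, and limma voom 8, beside 13973.

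The count also rested on library 7 (labelled C24 UV 1), the only first-set library of block D. Without it, 2 genes remained called, MYB111 and TTG1, while 74.9% of all loci were still called. The count was 4 without library 8, 13 or 20. It was also 2 without the whole of blocks A and D, in which a set holds 1 library. In that fit 13214 of all loci were still called, and MYB90 was not tested. Sizes and directions are therefore given block by block.

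**Figure D1:**
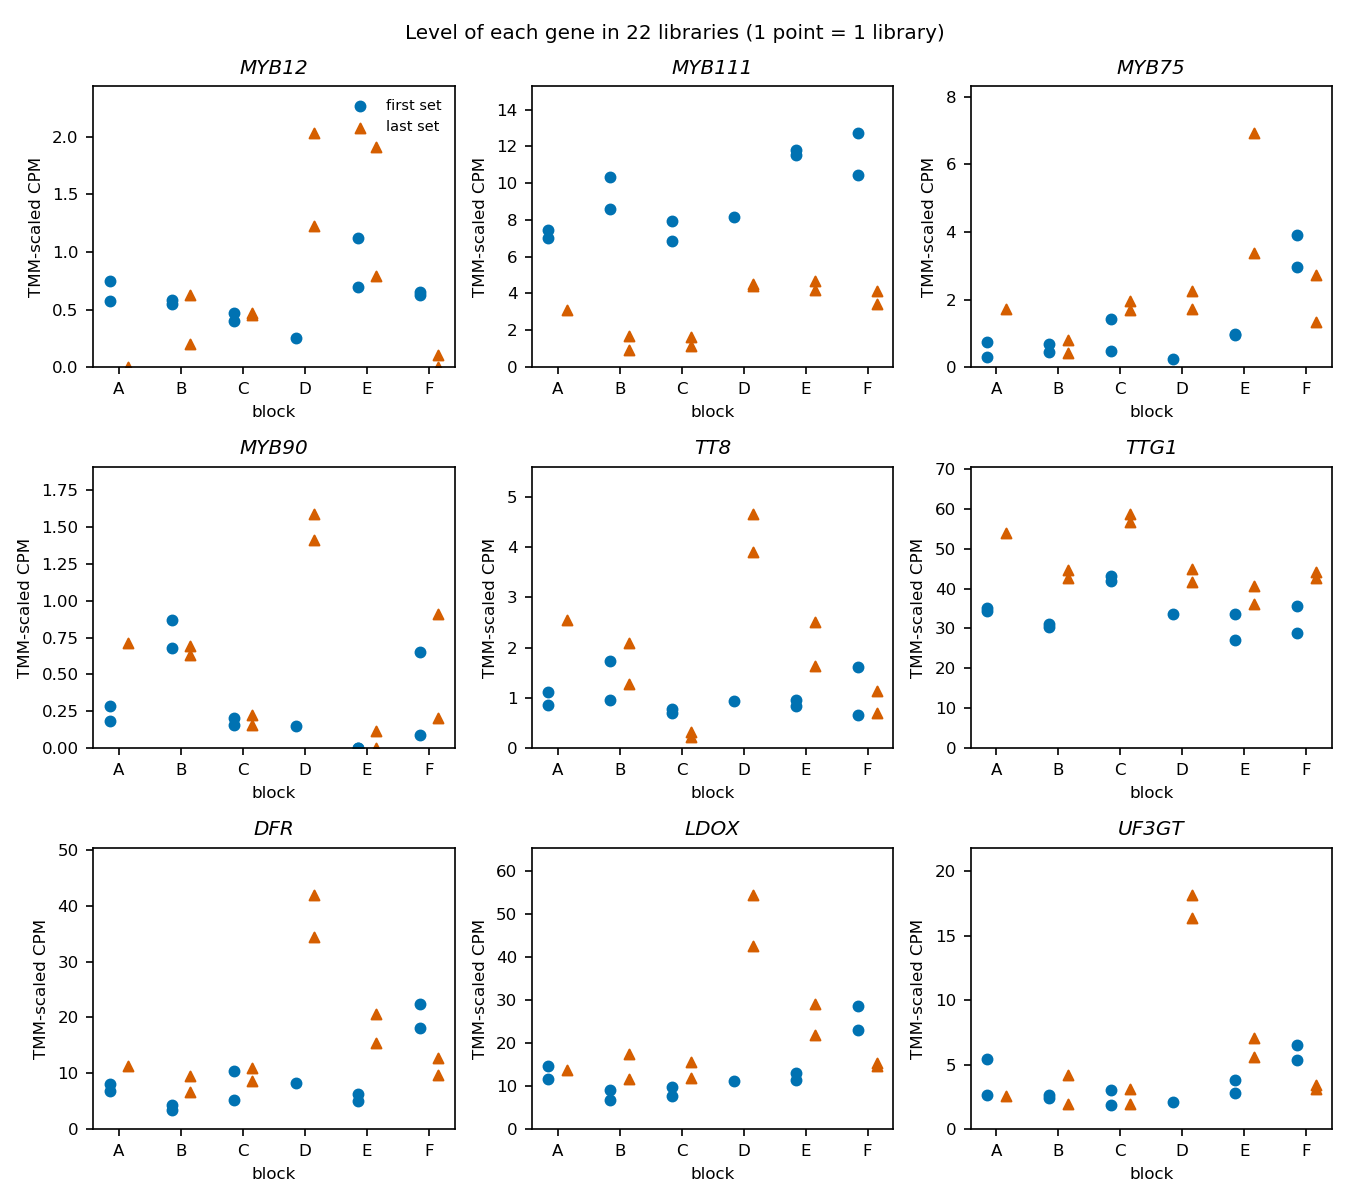
TMM-scaled CPM (linear axis from 0) of each of the 9 genes in all 22 libraries, by block A to F. Each point is 1 library, with circles for the first set and triangles for the last. MYB111 triangles lie below every circle, whereas DFR, LDOX and UF3GT triangles stand apart mainly in block D.

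Levels are CPM scaled by TMM factors, and they are not compared between genes because they are not corrected for length. MYB111, an activator of flavonol synthesis, stood at 7.46 and 7.01 CPM in the first-set libraries of block A and 3.13 CPM in the last-set library. It went from 10.3 and 8.57 to 0.942 and 1.68 CPM in block B and from 7.93 and 6.85 to 1.64 and 1.12 CPM in block C. In block D it was 8.18 against 4.54 and 4.41 CPM, in block E 11.5 and 11.8 against 4.19 and 4.66 CPM, and in block F 12.7 and 10.4 against 4.15 and 3.41 CPM. The lowest first-set library (6.85 CPM) lay above the highest last-set library (4.66 CPM), so the sets did not overlap. A gene lower in the last set with no overlap over the 22 libraries was found in 10.8% of loci tested.

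The log2 difference of MYB111 (last minus first set) was −1.70 ± 0.17 (SE, 11 against 11 libraries, edgeR adjusted p = 6.98e-09). It ranged from −0.88 ± 0.22 in block D to −2.82 ± 0.27 in block B, and each of the 6 blocks passed alone. The difference varied between blocks (edgeR F test of block by set, adjusted p = 0.00121, beside 33.5% of all loci called by the same test). MYB111 was lowest in the last-set libraries of blocks B and C, and those of blocks D, E and F lay close to each other. Leaving out any single library moved the difference only between −1.85 and −1.61.

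MYB12, the other flavonol MYB, was near the limit of detection. It had 2 to 8 counts in every first-set library and 0 to 24 in the last set. The counts in the last set were 0 in block A, 6 and 2 in B, 6 and 4 in C, 13 and 24 in D, 21 and 7 in E, and 0 and 1 in F. A count of 0 allows up to 0.426 CPM in library 12 and 0.304 CPM in library 21. Over all blocks the log2 difference was 0.14 ± 0.45 (edgeR adjusted p = 0.788) and no direction was shown. In block D the gene was at 0.249 CPM in library 7 and at 2.04 and 1.23 CPM in libraries 17 and 18 (log2 difference 2.51 ± 0.65, edgeR adjusted p = 0.00188). In blocks A and F the last-set counts were 0 to 1, so no fold is given. The test of block by set passed for MYB12 (edgeR F test, adjusted p = 0.00323, beside 33.5% of all loci). That test takes in blocks A and F, so no variation between blocks is read from it.

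MYB75, an anthocyanin MYB, had 1 to 33 counts in the first set and 4 to 61 in the last. In block E it went from 0.97 and 0.959 CPM to 3.37 and 6.94 CPM (log2 difference 2.37 ± 0.47, edgeR adjusted p = 1.14e-04). In block D it was at 0.249 CPM in the first set and 1.72 and 2.26 CPM in the last (3.00 ± 0.66, edgeR adjusted p = 3.81e-04). These were the 2 blocks in which MYB75 passed. It stood at 0.287 and 0.747 against 1.71 CPM in block A, at 0.436 and 0.68 against 0.419 and 0.79 CPM in block B, and at 0.466 and 1.41 against 1.95 and 1.68 CPM in block C. Block F had the highest first-set levels, 2.96 and 3.91 CPM, and there the last set was lower, at 2.73 and 1.34 CPM, without passing the test (−0.69 ± 0.41, edgeR adjusted p = 0.166). The last set lay above the first in 4 blocks, below it in 1 and overlapped it in 1. With 1 or 2 libraries a side, sets often lie apart, and the share of all loci with such a pattern was not counted. No result is read from these block counts. Over all blocks the log2 difference was 0.99 ± 0.36 (edgeR adjusted p = 0.0169), and 0.75 without library 7 (adjusted p = 0.0603). The difference varied between blocks (edgeR F test, adjusted p = 0.00248).

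MYB90, the near relative of MYB75, had 0 to 31 counts. It passed the filter on low counts only through libraries 17 and 18 (1.41 and 1.59 CPM). In block E it had 0, 0, 0 and 1 counts, and in block C 1 to 2 counts. In block B all 4 libraries lay between 0.628 and 0.872 CPM. In library 7, the first-set library of block D, it had 3 counts (0.15 CPM). Because libraries 17 and 18 alone brought MYB90 into the test and belong to the last set, no difference between the sets is read for it.

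MYB90 lies on chromosome 1 near its relatives MYB113 (chr1:24753589-24754761) and MYB114 (chr1:24757298-24758953), while MYB75 lies elsewhere on that chromosome. The coding sequences of MYB75 and MYB90 were 84.3% identical over 747 aligned bases, with a longest identical run of 42 bases. Those of MYB90 and MYB114 were 91.4% identical over 420 bases, with a run of 67. Reads from such stretches could be split between these genes, so their low counts are uncertain. MYB113 had 0 to 72 counts and was higher in the last set (2.08 ± 0.40, edgeR adjusted p = 8.51e-05), with 16 and 72 counts in libraries 17 and 18.

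TT8, the bHLH partner, was higher in the last set in blocks D and E. In block D it went from 0.948 CPM to 3.91 and 4.67 CPM (2.20 ± 0.40, edgeR adjusted p = 4.29e-05), and in block E from 0.831 and 0.959 CPM to 1.64 and 2.5 CPM (1.18 ± 0.47, adjusted p = 0.038). In block C it was at 0.777 and 0.706 CPM and then at 0.312 and 0.224 CPM, which rest on 5, 7, 4 and 2 counts (−1.37 ± 0.69, edgeR adjusted p = 0.0783). In block A it stood at 0.861 and 1.12 against 2.56 CPM, in block B at 1.74 and 0.952 against 2.09 and 1.28 CPM, and in block F at 1.61 and 0.652 against 0.708 and 1.14 CPM. The sets overlapped in blocks B and F, and none of A, B, C and F passed. The overall value was 0.69 ± 0.30 (edgeR adjusted p = 0.0429). That call was lost in 12 of the 22 fits that left out 1 library, namely 1, 3, 4, 7, 8, 9, 11, 12, 13, 17, 18 or 20. Without library 7 the value was 0.33 (edgeR adjusted p = 0.299). It was also lost with DESeq2 (adjusted p = 0.11).

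TTG1, the WD-repeat partner, differed between the sets by similar amounts in the 6 blocks. Its first-set levels were 27.2 to 43.1 CPM and its last-set levels 36 to 58.7 CPM. The sets overlapped across blocks but not within any block. In block C, where it was highest, it went from 42 and 43.1 CPM to 58.7 and 56.8 CPM, and in block E from 27.2 and 33.6 CPM to 40.7 and 36 CPM. It went from 34.4 and 35.2 to 54 CPM in block A, from 31.1 and 30.5 to 42.6 and 44.7 CPM in block B, from 33.7 to 41.7 and 44.9 CPM in block D, and from 35.6 and 28.9 to 42.7 and 44.1 CPM in block F. The last set was higher in all 6 blocks, each of which passed alone. Of all loci, 23.3% were higher without overlap in all 6 blocks, and 23.1% were lower, as MYB111 was. The log2 difference was 0.44 ± 0.05 (edgeR adjusted p = 2.89e-08), and the blocks ranged from 0.35 ± 0.11 to 0.63 ± 0.12. A difference between blocks was not shown (edgeR F test, adjusted p = 0.664).

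**Figure D2:**
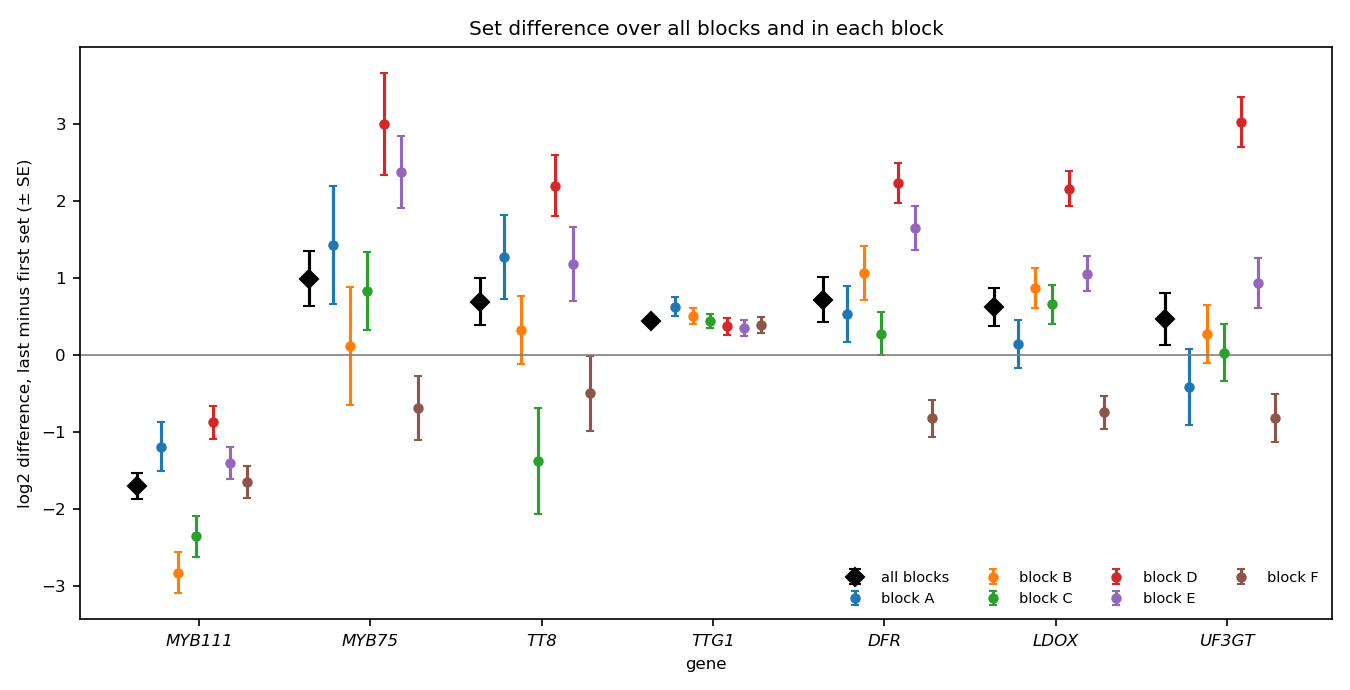
Log2 difference between the sets (last minus first, vertical axis) for 7 genes, with SE bars. Black diamonds are the fit over all blocks and coloured circles are single blocks. MYB12 and MYB90 are left out because their counts reached 0. TTG1 circles cluster near 0.44, MYB111 circles all lie below 0, and the other genes range from block D (highest) to block F (below 0), apart from TT8, whose lowest value is in block C.

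The late enzymes reached their highest levels in the last-set libraries of block D. DFR, which reduces dihydroflavonols, was at 8.23 CPM in library 7 and at 34.5 and 41.9 CPM in libraries 17 and 18 (2.24 ± 0.26, edgeR adjusted p = 1.26e-06). LDOX, which forms the coloured anthocyanidins, went from 11.1 CPM to 42.6 and 54.4 CPM there (2.16 ± 0.23, edgeR adjusted p = 4.97e-07). UF3GT, a glycosyltransferase of anthocyanins, went from 2.09 CPM to 18.2 and 16.4 CPM (3.02 ± 0.32). In block D all 9 genes passed, 8 higher and 1 lower, beside 53.6% of loci (27.2% higher and 26.4% lower). DESeq2 called 6 of the 9 there, and leaving out single libraries gave 7 to 9. Of all loci, DESeq2 also called fewer there, 7107 against 9725 with edgeR. The count of 9 includes MYB90, brought into the test by libraries 17 and 18 themselves. The comparison has 1 library in the first set, which is assumed to vary like the others. Library 7 was also the deepest library (20903894 counts) and had the highest leaf marker sum, 36742 CPM against 25465 and 27472 CPM in libraries 17 and 18. The part of these in the result was not tested.

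In block E the enzymes were higher in the last set by smaller amounts. DFR went from 6.24 and 5.11 CPM to 15.5 and 20.6 CPM (1.65 ± 0.29), LDOX from 11.4 and 13.1 CPM to 22 and 29.1 CPM (1.06 ± 0.23), and UF3GT from 2.77 and 3.83 CPM to 5.56 and 7.05 CPM (0.93 ± 0.32). All 3 passed in edgeR (adjusted p = 1.1e-04, 8.15e-04 and 0.0177). In this block 7 of the 9 genes passed, 6 of them higher and 1 lower, beside 53.7% of loci (27% higher and 26.8% lower).

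Block F went the other way. There the first set was high and the last set lower for all 3 enzymes. DFR stood at 18.1 and 22.4 CPM in the first set and 9.61 and 12.7 CPM in the last (−0.82 ± 0.24, edgeR adjusted p = 0.00811). LDOX stood at 23 and 28.5 CPM and then at 14.6 and 15.4 CPM (−0.74 ± 0.21, edgeR adjusted p = 0.00717). UF3GT stood at 5.38 and 6.52 CPM and then at 3.44 and 3.1 CPM (−0.82 ± 0.32, edgeR adjusted p = 0.0308). In block F 5 genes were lower, MYB12 with its 0 and 1 counts among them, and 1 was higher, beside 55% of loci called (27.4% lower and 27.7% higher). The first-set libraries of block F exceeded all other first-set libraries for DFR and LDOX.

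The remaining blocks were less uniform. In block B, DFR went from 4.36 and 3.4 CPM to 9.53 and 6.71 CPM and LDOX from 6.68 and 9.11 CPM to 17.5 and 11.5 CPM. Both passed (edgeR adjusted p = 0.0149 and 0.00978), and UF3GT did not, at 2.62 and 2.45 CPM and then 4.19 and 1.97 CPM (0.27 ± 0.38, adjusted p = 0.566). In block C, LDOX went from 7.77 and 9.68 CPM to 15.7 and 11.9 CPM and passed at 0.66 ± 0.25 (edgeR adjusted p = 0.027). DFR stood there at 5.13 and 10.4 against 11 and 8.53 CPM (0.28 ± 0.27), and UF3GT at 1.87 and 3.02 against 3.12 and 1.91 CPM (0.03 ± 0.37). In block A none of the 3 passed. DFR was at 6.88 and 8.13 against 11.2 CPM and LDOX at 14.6 and 11.6 against 13.8 CPM. UF3GT was at 5.45 and 2.62 CPM in the first set and at 2.56 CPM in the last, which lay below both. In block A 3 of the 9 genes were called, 1 higher and 2 lower (MYB111, and MYB12 with 0 counts), beside 46.9% of loci (24.6% higher and 22.3% lower). In block B 4 were called, 3 higher and 1 lower, beside 57.2% (28.1% higher and 29.1% lower). In block C 3 were called, 2 higher and 1 lower, beside 68.6% (34.4% higher and 34.3% lower).

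Over all blocks DFR was higher by 0.72 ± 0.29 on the log2 scale (edgeR adjusted p = 0.0318), LDOX by 0.62 ± 0.25 (adjusted p = 0.0296) and UF3GT stood at 0.47 ± 0.34 (adjusted p = 0.223). Without library 7 these were 0.46, 0.39 and 0.04, with adjusted p of 0.116, 0.0892 and 0.881. The call of DFR was also lost without library 5, 8, 9, 13 or 20, and that of LDOX without library 8, 13, 15 or 20. The set difference varied between blocks for all 3 (edgeR F test, adjusted p = 8.4e-05 for DFR, 7.48e-05 for LDOX and 8.87e-06 for UF3GT). UF3GT passed when the 6 block differences were averaged (0.50, edgeR adjusted p = 0.00506), a fit in which 77.7% of loci were called.

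**Figure D3:**
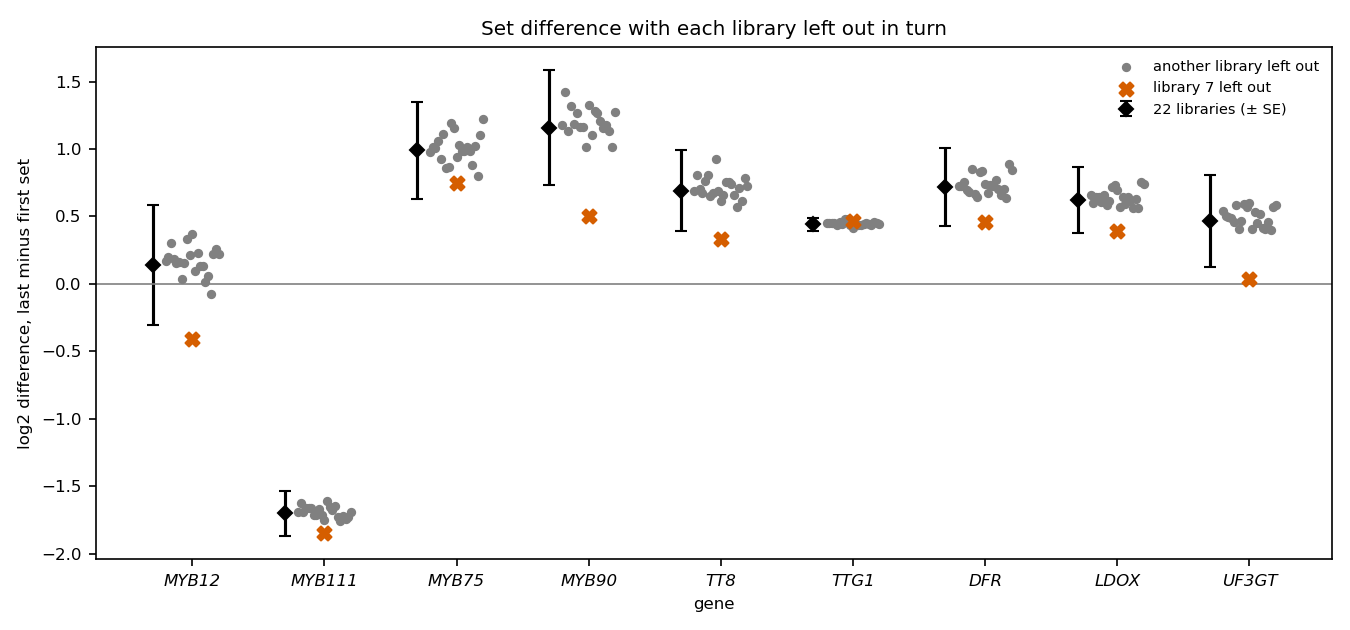
Log2 difference between the sets (last minus first, vertical axis) for each gene, from all 22 libraries (diamonds, ± SE) and with each library left out in turn (points). Crosses mark the fit without library 7, which gives the lowest value for every gene but TTG1. MYB90, tested only because libraries 17 and 18 were high, is shown without a reading. MYB111 stays between −1.85 and −1.61 and TTG1 between 0.42 and 0.48.

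Likeness between profiles was described by Pearson's r of log2 CPM over the 22 libraries after the mean of each set was subtracted. The libraries share blocks and depth differences, so r carries no p. DFR and LDOX had r = 0.911, LDOX and UF3GT 0.928 and DFR and UF3GT 0.822. MYB75 reached 0.602 with DFR and 0.541 with LDOX, and TT8 reached 0.617 and MYB12 0.675 with UF3GT. TTG1 had negative r with each of the other 8 genes, from −0.506 with MYB111 to −0.103 with MYB90. The loci outside the 9 genes most like the mean of the 3 late enzymes were AT4G14090 (0.919), TT7, a flavonoid hydroxylase (0.896), GLX1 (0.85), AT3G62010 (0.842) and GCL1 (0.825). Those most like MYB12 were 4CL3 (0.826), CHIL (0.825), FLS1 (0.82), CHS (0.804) and AT1G18660 (0.796), although MYB12 had few counts. Among them CHIL, FLS1 and CHS act in flavonol synthesis. Those most like MYB75 were AT3G18170 (0.826), ATG8D (0.805), AT3G22530 and TOC132 (both 0.772) and PGIP2 (0.768).

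Other genes of the pathway were compared in the same fit. Of 10 early flavonoid and flavonol enzymes, 6 were higher in the last set, 1 was lower and 3 did not pass. Of all loci, 37.7% were higher and 38.5% lower. The median log2 difference of the list was 0.52 beside −0.01 over all loci. RHM1, which makes UDP-rhamnose, was higher by 0.99 ± 0.07, F3H by 1.90 ± 0.22, chalcone synthase CHS by 0.88 ± 0.15 and CHIL by 0.64 ± 0.15 (edgeR adjusted p = 5.4e-11, 7.98e-08, 6.39e-05 and 9.29e-04). CHS went from 89.5 CPM in library 7 to 422 and 378 CPM in libraries 17 and 18, its largest difference (2.16 in block D). It stood at 0.72 to 0.92 in blocks A, B, C and E and at 0.29 in block F. Without library 7, 6 were still higher and 1 lower, beside 6915 and 6664 of 18137 loci. The lower gene was the flavonol rhamnosyltransferase UGT78D1 (−0.62 ± 0.15), and flavonol synthase FLS1 stood at 0.00 ± 0.16. That value joins unlike blocks, since FLS1 stood at 1.42 in block D and between −0.30 and −0.09 in every other block. Without library 7 it was −0.18.

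Of 7 tested genes of anthocyanin decoration and transport, 6 were higher and 1 did not pass (median 0.65), beside 37.7% of loci higher. One listed locus was not analysed here. BGLU10, a glucosyltransferase of the beta-glucosidase family, was higher by 1.33 ± 0.12, AT1G03940 by 1.41 ± 0.23, UGT84A2 by 1.13 ± 0.25 and the anthocyanin transport gene GSTF12 by 0.51 ± 0.20 (edgeR adjusted p = 8.27e-09, 1.01e-05, 6.28e-04 and 0.0246). Without library 7, 4 of the 7 were higher, beside 6915 of 18137 loci. In block D, where library 7 is the only first-set library, all 10 early enzymes and all 7 decoration genes tested were higher, beside 27.2% of loci. In block F 1 early enzyme was higher and 2 were lower, and 2 decoration genes were higher and 1 was lower, beside 27.7% of loci higher and 27.4% lower.

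Of 7 genes of the proanthocyanidin branch, which serves the seed coat, only the proton pump gene AHA10 reached the filter (0.44 ± 0.17, edgeR adjusted p = 0.0227), and the others had at most 4 counts in any library. Of 5 tested MYB and bHLH partners, MYB113 was higher, the bHLH gene EGL3 was lower (−0.32 ± 0.11, edgeR adjusted p = 0.015) and 3 did not pass. The shares over all loci were 37.7% higher and 38.5% lower. GL3, another bHLH partner, and the light-input gene HYH were not analysed here.

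Repressors moved in both directions. Of 10 tested, 2 were higher, 4 lower and 4 did not pass (median −0.24), beside 37.7% of loci higher and 38.5% lower. LBD38 was higher by 1.32 ± 0.07 and MYB7 by 1.90 ± 0.21, while SPL9, which disturbs the MYB-bHLH complex, stood at −1.21 ± 0.08 and MYBL2, a small MYB repressor, at −0.53 ± 0.11 (edgeR adjusted p = 3.54e-13, 6.78e-08, 2.21e-11 and 1.86e-04). Of 9 tested genes of light input, 3 were higher, 4 lower and 2 did not pass, beside the same shares of loci. BBX22 was higher by 0.98 ± 0.05 and RUP1, a repressor of the UV-B receptor, by 1.53 ± 0.16. The receptor gene UVR8 stood at −0.29 ± 0.04 and BBX21 at −0.61 ± 0.08 (edgeR adjusted p = 1.83e-13, 3.16e-08, 1.89e-07 and 9.34e-07, in this order). HY5, a bZIP activator of the pathway, stood at −0.01 ± 0.11, with blocks from −0.39 in B to 0.80 in D. Since 76.2% of all loci were called in this fit, no list is described as particular.

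**Figure D4:**
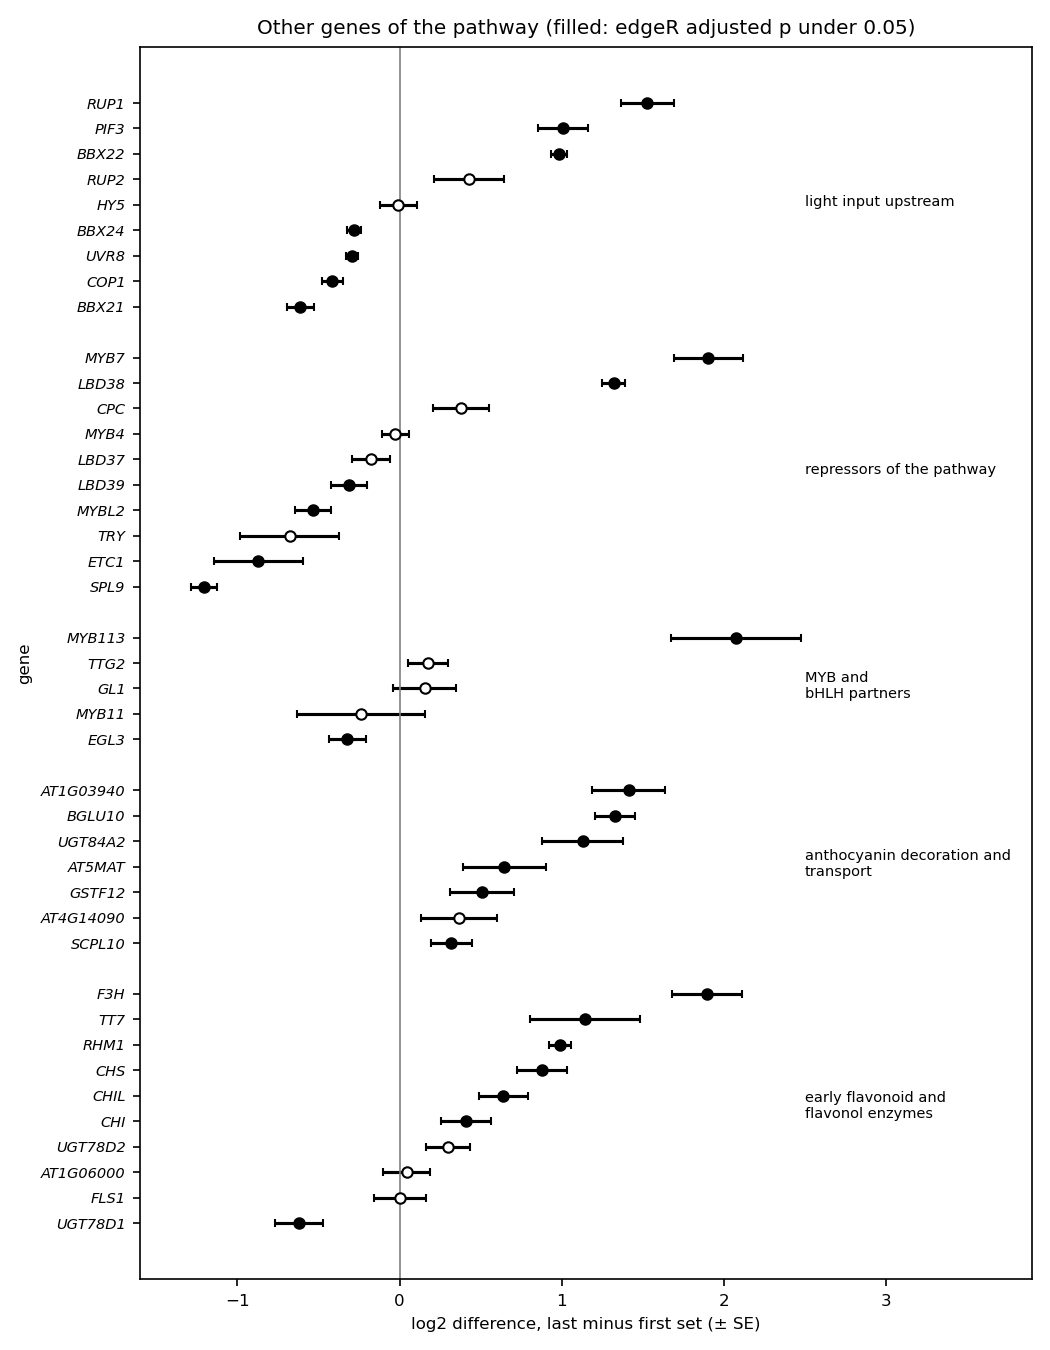
Log2 difference between the sets (last minus first, horizontal axis, ± SE) for the other tested genes of the pathway, grouped by role. Filled points passed edgeR's test at an adjusted p under 0.05. Decoration genes all lie above 0, from 0.32 to 1.41, whereas repressors span −1.21 to 1.90.

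By the labels, the comparison of UV with mock gave no call for these genes. Over the 6 labelled accessions 0 of the 9 genes passed (edgeR, 11 libraries labelled UV against 11 labelled mock), beside 0% of the 18149 loci, and 0 of the 9 had an unadjusted p under 0.05 against 504 of all loci. Mean log2 differences (UV minus mock) ran from −0.59 ± 0.47 for MYB12 to 0.58 ± 0.73 for MYB90, each with an adjusted p of 1. TTG1 was at −0.09 ± 0.08, MYB111 at 0.01 ± 0.23, LDOX at 0.06 ± 0.24, DFR at 0.04 ± 0.32, MYB75 at 0.06 ± 0.35, UF3GT at −0.26 ± 0.35 and TT8 at −0.57 ± 0.43. DESeq2 and limma voom also called 0 of the 9.

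No labelled accession gave a call among the 9 genes. The lowest adjusted p was 0.239, for TTG1 in C24 (−0.48 ± 0.18, edgeR), where 0.27% of loci passed. Its levels were 42.6 ± 0.83 CPM in C24 mock and 30.4 ± 4.6 CPM in C24 UV (SD, n = 2 each). In T1080, MYB12 was at 7 counts in the mock library and 0 and 1 in the UV libraries (edgeR adjusted p = 0.594), and 0.00551% of loci passed. In Ba-1, Got-7, Lip-0 and Mh-0 0% of loci passed. LDOX in Mh-0 shows how wide the labelled groups were, at 27.2 ± 21.7 CPM in mock and 38.2 ± 22.9 CPM in UV (SD, n = 2 each). Each of these groups held 1 library of block D and 1 of another block. Differences of the UV effect between labelled accessions were not shown for any of the 9 (edgeR F test, lowest adjusted p = 0.646).

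**Figure D5:**
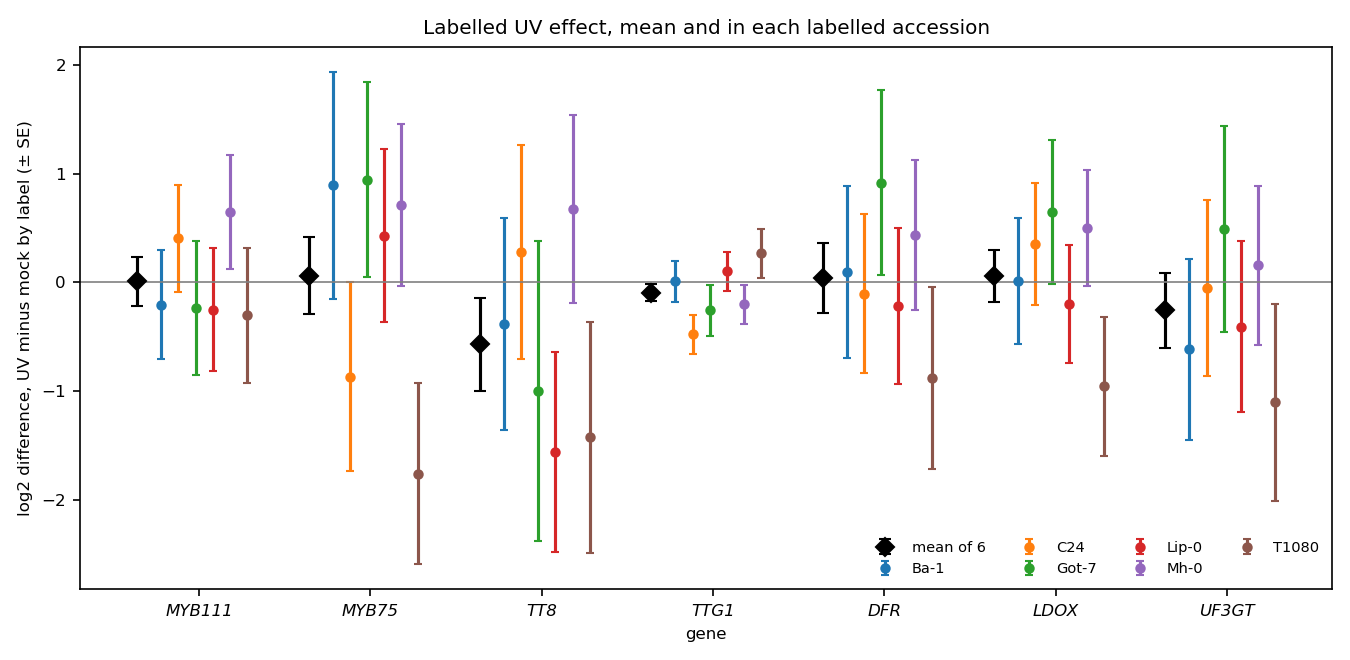
Log2 difference between libraries labelled UV and mock (vertical axis, ± SE) for 7 genes, as the mean of 6 labelled accessions (black diamonds) and in each accession (coloured circles). MYB12 and MYB90 are left out because their counts reached 0. The diamonds lie between −0.57 and 0.06, and no value passed the test.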

How the data were processed

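Per the labels' protocols, RNA of whole seedlings (RNeasy kit, DNase) was sequenced from TruSeq libraries. The authors deposited raw counts per locus as whole numbers. The submitters' processing notes list TopHat, FastQC and 2 builds, TAIR10 and TAIR9. The sources used here do not name the program that counted reads, its gene models or its strand setting. Columns were matched to samples by number, with 0 left unmatched.

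In R 4.3.3, edgeR 4.0.16 (TMM factors, robust quasi-likelihood F test, Benjamini-Hochberg adjustment over all loci) was run on the 18149 loci that reached 1 CPM in 2 or more libraries. An adjusted p under 0.05 was called. The fits were block plus set, 12 block-by-set means and 12 labelled group means, with biological coefficients of variation of 13.2%, 6.94% and 26.7%. SE was taken from the log2 difference and its F statistic. Log2 CPM used a prior count of 2. Alternatives were DESeq2 1.42.0, limma 3.58.1 (voom), RLE size factors, no filter, other models and leaving out each of 22 libraries. The limit that a count of 0 allows was taken as 3 counts and covers counting error alone, because PCR copies were not told apart. Sequences and symbols came from RefSeq (TAIR10.1), and 23847 of 24185 loci matched a symbol.

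The genes, lists, blocks and sets were chosen with earlier results of these data known. All 9 genes are named, as are up to 4 genes of each pathway list with the smallest p for the set difference and the 5 loci most like each of 3 profiles. FLS1, UGT78D1 and HY5 were named after their values were seen. Labelled replicate numbers did not pair libraries in C24, Lip-0 and Mh-0, so the main fit has no block for them. In Ba-1 same-numbered libraries went together, and Got-7 and T1080 could not be checked.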

Additional observations from a re-analysis of the deposited data

Results flagged for a closer look

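The test of block by set passed for 7 of the 9 genes (edgeR F test over all loci, which called 33.5% of them). The adjusted p was 8.87e-06 for UF3GT, 7.48e-05 for LDOX, 8.4e-05 for DFR, 0.00121 for MYB111, 0.00248 for MYB75, 0.00323 for MYB12 and 0.00408 for TT8. Blocks and sets are not groups given by the labels. For UF3GT the values ran from −0.82 ± 0.32 in block F to 3.02 ± 0.32 in block D, and for MYB111 from −2.82 ± 0.27 in block B to −0.88 ± 0.22 in block D. MYB12 rests on 0 to 24 counts, and its test takes in blocks A and F with last-set counts of 0 to 1, so it is not read. DESeq2 called 5 of the 9 genes, and limma voom, RLE factors, no filter and each fit with a library left out called 7.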

How the results depend on the processing

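The number of genes called for the set difference was 7 of 9 and ranged from 2 to 7 when single libraries were left out. It was 5 with DESeq2 and without a block term, 8 with limma voom and as the mean of 6 block values, and 2 without blocks A and D. In the same order, 13665, 11806, 13973, 14104 and 13214 of all loci were called. The call of MYB90 was lost with DESeq2 (adjusted p = 0.0802) and without a block term (edgeR adjusted p = 0.12), and that of MYB75 without a block term (edgeR adjusted p = 0.0805). MYB111 and TTG1 kept their direction and call in every setting. MYB12, not called, reversed to −0.28 with DESeq2, −1.05 as the mean of 6 block values and −0.19 without blocks A and D, and ranged from −0.41 to 0.37 with libraries left out. The mean of 6 block values takes in blocks A and F, whose last-set counts of MYB12 were 0 to 1, so its size depends on fitted folds over such counts and is not interpretable. UF3GT became called with limma voom (1.07, adjusted p = 0.0117) and as the mean of 6 block values (0.50, edgeR adjusted p = 0.00506). The cause was not tested. Without library 17 or 18, or without blocks A and D, MYB90 fell below the filter and gave no value.

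Within blocks, leaving out libraries gave 2 to 4 genes in B, 7 to 9 in D, 4 to 7 in E and 3 to 6 in F. DESeq2 called 6 genes in D against 9. Over all loci the block-by-set count was 3626 with DESeq2, against 6083.

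By label, no setting called any of the 9 genes. MYB75 turned to −0.00915 with limma voom. With libraries left out the mean difference ran from −0.97 to 0.21 for MYB12, −0.11 to 0.22 for MYB111, −0.12 to 0.42 for MYB75, −0.14 to 0.26 for DFR, −0.0749 to 0.26 for LDOX and −0.42 to 0.14 for UF3GT. Loci called with DESeq2 were 2 for the mean, 48 in T1080, 635 in C24, 8 in Ba-1, 4 in Mh-0, 2 in Lip-0, 1 in Got-7 and 351 for the difference between accessions. With libraries left out they ranged from 0 to 7 for the mean, 0 to 46 in T1080, 0 to 271 in C24, 0 to 28 in Ba-1, 0 to 486 in Mh-0, 0 to 15 in Lip-0, 0 to 6 in Got-7 and 0 to 10 for the difference between accessions. The replicate block gave 20 loci in C24 against 49. Deviations of same-numbered libraries correlated at 0.597 in Ba-1, −7.13e-04 in C24, −0.336 in Lip-0 and −0.281 in Mh-0. The numbers thus went with pairs in Ba-1 but not in C24, Lip-0 or Mh-0.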
